A study of Mus musculus with 9 samples.

Results

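Exonic differentially methylated regions (DMRs) of protein-coding genes were the 435 regions whose centre lay in an exon, coding or untranslated, outside the windows around transcript starts and ends. They were 3.39% of the 12845 autosomal DMRs and lay in 422 genes. The regions came from methylated DNA immunoprecipitation sequencing (meDIP-seq), in which an antibody to methylated cytosine pulls down DNA fragments before sequencing, on hypothalamus of male C57/Bl6 mouse pups. Pups of the modified maternal separation (MMS) group were taken from the dam for 1.5 h a day from postnatal day (P) 4 to P6 and turned onto their back whenever they righted themselves, and control pups came from the same litters. Tissue was taken at P6, and the 10 animals of each group were combined into 3 pools, so each library was a mixture of animals and of all hypothalamic cell types. An IgG library and 1 input library per group were also sequenced, but the deposited table held no column for them.

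Methylation of cytosine in the dinucleotide CpG is placed by DNA methyltransferases and is found along the bodies of most mammalian genes, whereas CpG-rich promoters are mostly free of it. Coding exons keep more CpG than introns, because methylated CpG mutates readily and codons are under selection. Exon methylation has been studied in relation to splicing, to internal promoters and to transcription through the gene.

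The sequences of 9 exonic DMRs show the range of CpG content behind the values that follow. Each is the 30 coding bases with the most CpG inside the DMR, on the strand of the gene and in mm10, with every CpG in capitals. Tenm3 (chr8:48228650-48228679, minus strand), Palld (chr8:61549842-61549871, minus strand), Cdh10 (chr15:19013522-19013551, plus strand) and Numbl (chr7:27274032-27274061, plus strand) are shown as CpG-dense exons. Ash1l (chr3:88984697-88984726, plus strand), Bcl11a (chr11:24163194-24163223, plus strand) and Srrm1 (chr4:135324080-135324109, minus strand) are shown for large differences between the groups. Ptprb (chr10:116361208-116361237, plus strand) is shown because its exon held no CpG, and Gm17535 (chr9:3034676-3034705, plus strand) because it lay in repeated sequence.
Tenm3: caggCGCGccagCGCGCGctCGccCGggCG
Palld: ccttCGgcCGCGCGccCGggcCGcccttCG
Cdh10: aCGcctaCGaaggaaaCGactcCGtggcCG
Numbl: CGgagtcacCGcCGccttCGaCGccagtCG
Ash1l: tCGtctaagtgagattCGgatcacccatCG
Bcl11a: tcaccagtgcatggtttctcttgcaacaCG
Srrm1: ggctgcctcaccaagccctcagtcCGtaag
Ptprb: agcccttgtttggagttattgaaggtgtga
Gm17535: ctttttcagttttcctCGccatatttcaCG
The Tenm3 window held 8 CpG and the Palld window 7, against 1 in the windows of Bcl11a and Srrm1.

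The deposited table gave for each region the log2 mean of normalised reads over the 3 control pools and over the 3 MMS pools, here called the level of a group. It held no value per pool, so the spread between pools was not available, no test was made, and a difference of levels is a description of 2 group means. All regions listed had passed an FDR of 0.05 in the comparison made by the authors, so each member had to differ, and regions that were tested but not listed are not known. Regions are not replicates, and the Wilson 95% intervals below cover counting error only. The lowest level in the table was -0.17 in control and -0.24 in MMS. Where a group was at or within 0.5 of its lowest level, the size of the difference depends on where that lowest level was set.

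More of the listed exonic DMRs had a higher level in MMS than in control, but not once regions with a group near its lowest level were left out (46.1% higher in MMS). The level was higher in MMS in 257 exonic DMRs and higher in control in 178, so that 59.1% (54.4 to 63.6) were higher in MMS, beside 62.4% of all listed autosomal DMRs and 62.1% of intronic DMRs. Exonic DMRs thus lay near the background in direction. The median difference was 3.32 on the log2 scale in those higher in MMS (quartiles 2.50 and 3.94) and -1.62 in those higher in control (quartiles -2.12 and -1.32), beside 3.43 and -1.73 in all autosomal DMRs. Differences ran from -5.09 to 6.68, and the smallest in size was 0.71, at Trim46.

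The 2 directions differed in level as well as in sign. Exonic DMRs higher in MMS had median levels of 0.75 in control and 4.30 in MMS, and those higher in control had 5.22 in control and 3.54 in MMS. Regions higher in MMS were therefore mostly regions with few control reads, whereas regions higher in control usually kept reads in both groups. The control level was within 0.5 of its lowest in 111 of the 257 exonic DMRs higher in MMS, or 43.2% (37.3 to 49.3), beside 52.6% over all autosomal DMRs. The MMS level was that low in 7 of the 178 exonic DMRs higher in control, or 3.93%, beside 4.61%. In coding exons the control level was near its lowest in 52 of 137 (38.0%), and in 3′ UTR exons in 36 of 75 (48.0%).

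**Figure D1:**
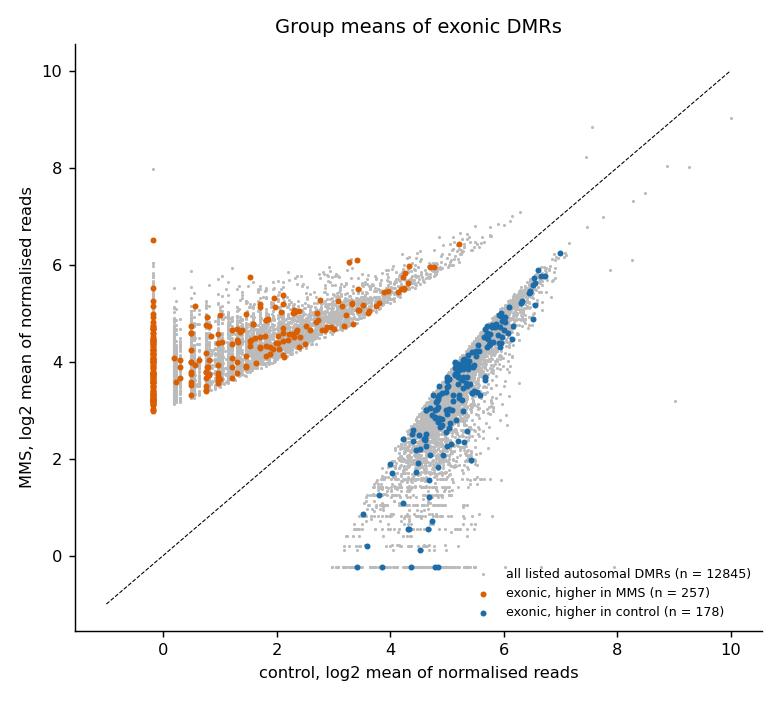
Control level (x axis) and MMS level (y axis) of each DMR, both as the log2 mean of normalised reads of 3 pools, with 257 exonic DMRs higher in MMS in orange, 178 higher in control in blue, and all 12845 listed autosomal DMRs in grey. The column of orange points at the left edge is the 106 exonic DMRs with control exactly at its lowest level of -0.17, and no point lies near the dashed line of equal levels because only regions that passed the threshold of the authors were listed.

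Direction followed the level of the region. With the level taken over all 6 meDIP libraries, 78 of 82 exonic DMRs between 2 and 3 were higher in MMS (95.1%), as were 115 of 144 between 3 and 4 (79.9%). Between 4 and 5 the count was 52 of 146 (35.6%), and from 5 up it was 12 of 63 (19.0%). The same shares over all autosomal DMRs were 96.8%, 79.1%, 32.0% and 16.1%, so the exonic DMRs had the series-wide pattern. Among the 317 exonic DMRs with neither group near its lowest level, 146 were higher in MMS (46.1%), beside 45.1% of 8410 autosomal DMRs chosen in the same way.

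The 6 largest differences toward MMS with the control level clear of its lowest were at Sprtn, Ash1l, Adcy3, Dapl1, Exoc6 and Abca17. Sprtn, a protease that clears protein crosslinked to DNA, had levels of 0.57 in control and 5.14 in MMS in an exon of a processed transcript. Ash1l, a Trithorax-type histone methyltransferase, had 1.53 and 5.75 in exon 3 of 28 (chr3:88984461-88985196), which is 4558 bp long and contained the whole DMR with its 15 CpG. Adcy3, the adenylyl cyclase enriched in primary cilia of neurons, had 0.77 and 4.92 in a coding exon. All 3 therefore went from few reads in control to a well-covered region in MMS. Dapl1 had 0.50 and 4.60 in coding exon 2 of 4, and Exoc6, a subunit of the exocyst that tethers secretory vesicles, had 0.50 and 4.59 in its 3′ UTR. Abca17, a transporter of the ABC family, had 0.50 and 4.74, but its DMR shared a stretch of at least 100 bp and 95% identity with 4437 other places in the genome.

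With control exactly at its lowest level, the largest differences were at Gm17535, Btnl2 and Cdh10. The Gm17535 DMR (chr9:3033712-3036432) had -0.17 in control and 6.51 in MMS. It was 2721 bp wide, 96.9% of its bases were soft-masked as repeats, it aligned to 10 other places, and only 24.7% of it was exonic, so its reads cannot be assigned to the gene with certainty. Btnl2, a butyrophilin-like regulator of T cells, had -0.17 and 5.52. Cdh10, a type II cadherin of neuronal cell adhesion, had -0.17 and 5.25 in its last exon (chr15:19013174-19013639), with 24 CpG in 466 bp, no soft-masked base and no other alignment. The Cdh10 region therefore had none of the repeat features of Gm17535.

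The 6 largest differences toward control with the MMS level clear of its lowest were at Srrm1, Yju2, Ufl1, Numbl, Bcl11a and Prune1. Srrm1, a coactivator of splicing, had 4.66 in control and 0.54 in MMS in exon 16 (chr4:135323981-135324171). Of the 5 coding transcripts that span the DMR centre, 4 have an exon there. Yju2, also a splicing factor, had 4.34 and 0.55, and Ufl1, the ligase that attaches the ubiquitin-like protein UFM1, had 4.74 and 0.71, both in exons of retained-intron transcripts. Numbl, an adaptor that antagonises Notch signalling in neural progenitors, had 4.32 and 0.54 in coding exon 7 of 10 (chr7:27273773-27274424). Of the 32 CpG in that DMR, 20 lay in exons. Bcl11a, a zinc finger transcription factor of neurons and blood, had 4.68 and 1.20 in the coding part of its last exon, in a DMR with 1 CpG. Prune1 had 5.43 and 1.98 in its 3′ UTR, but its 460 bp DMR aligned to 3 other places, over up to 344 bp.

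MMS was exactly at its lowest level, -0.24, at 5 exonic DMRs, and the 3 with the largest differences were at Ptprb, Ssbp3 and Greb1, where control had 4.85, 4.79 and 4.37. Ptprb encodes a receptor tyrosine phosphatase of endothelial cells. Its DMR was 839 bp wide with 11.9% of its bases exonic, its 14 CpG all lay outside the exon, and it shared sequence with 1807 other places. Ssbp3, a partner of LIM-domain transcription complexes, and Greb1, an oestrogen-regulated gene, had no other alignment.

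**Figure D2:**
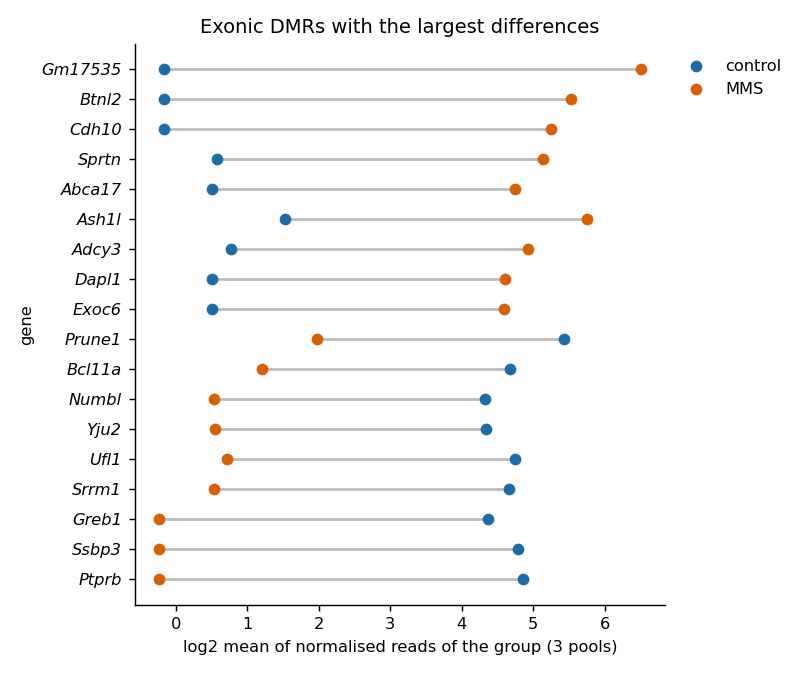
Levels in control (blue) and MMS (orange), as the log2 mean of normalised reads of 3 pools, at the 18 exonic DMRs with the largest differences, 9 in each direction, one gene per row. The left points of Gm17535, Btnl2 and Cdh10 sit at the lowest control level of -0.17, and those of Greb1, Ssbp3 and Ptprb at the lowest MMS level of -0.24.

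Per kb of DMR, the strongest signals were in regions higher in control. Npas3, a neuronal bHLH-PAS transcription factor, had 345.9 normalised reads per kb in control and 164.7 in MMS in its 3′ UTR. Cpm, a membrane carboxypeptidase, had 304.3 and 104.6 in coding exon 6, and Mfsd6, a member of the major facilitator superfamily, had 286.7 and 109.4 in its last exon. In the other direction the highest were Olfr215, an olfactory receptor with 180.3 normalised reads per kb in MMS against 18.8 in control, Adcy3 with 172.0 against 9.69, and LTO1 with 148.8 against 19.3. All of these DMRs were 231 bp wide or narrower, beside a median of 604 bp over all exonic DMRs. This ranking thus picked out narrow regions, and each value rests on a short region.

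By part of the gene, coding sequence was the largest class. The DMR centre lay in coding sequence in 230 regions, in a 3′ UTR in 127, in a 5′ UTR in 7, and in an exon of a non-coding transcript of the gene only in 71. The share higher in MMS was 59.6% (137) in coding sequence, 59.1% (75) in 3′ UTRs and 56.3% (40) in exons of non-coding transcripts, and 5 of the 7 in 5′ UTRs were higher in MMS. Direction therefore differed little between parts, and each interval contained the share of all exonic DMRs. Of the 71 in non-coding transcripts, 62 were in retained-intron transcripts and 9 in processed transcripts, and none of their centres lay in an exon of a coding transcript.

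**Figure D3:**
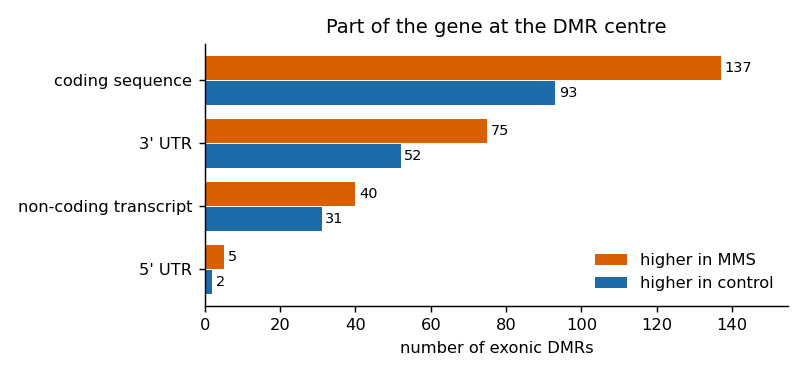
Number of exonic DMRs (x axis) higher in MMS (orange) and higher in control (blue) by the part of the gene at the DMR centre (y axis). MMS is the longer bar in every part, with 137 against 93 in coding sequence and 75 against 52 in 3′ UTRs.

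Coding and 3′ UTR regions lay in exons of different shape. Of the coding DMRs, 178 were in internal exons, with a median exon of 185.5 bp, and in 122 of these the exon lay wholly inside the DMR. Coding bases made up a median of 48.7% of the width of a coding DMR, so about as many bases lay outside it. Of the 3′ UTR DMRs, 119 were in the last exon, the median exon was 3417 bp, and 97 were wholly exonic. A coding DMR therefore usually spanned an exon with its flanks, whereas most 3′ UTR DMRs held exon alone. Over all parts the median width was 604 bp (143 to 3206), 189 DMRs were wholly exonic, and in 33 less than 25% of the bases were exonic. Sbf1 had the most exons in 1 DMR, 5, with levels of 5.80 in control and 4.72 in MMS.

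In 216 coding DMRs, of which 129 were higher in MMS, every coding transcript that spans the DMR centre had an exon there. In 85 of the 216 only 1 coding transcript spanned the exon, so inclusion in every one was given. In the other 14 coding DMRs, of which 8 were higher in MMS, some spanning coding transcripts had no exon at the DMR centre. These included Palld, an actin-associated scaffold, with -0.17 in control and 4.42 in MMS in exon 11, and Kif1b, a kinesin that carries mitochondria and synaptic vesicle precursors, with 5.81 and 4.41. The Kif1b exon was the last of its transcript, 21 of 21. Exon use itself was not measured here.

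Exonic DMRs held more CpG than intronic DMRs, and little more than those at transcript starts. The median was 2.02 CpG per 100 bp (quartiles 1.47 and 2.69) in exonic DMRs, 1.82 in DMRs at transcript starts, 1.66 at transcript ends, 1.36 in intronic DMRs and 1.22 in DMRs outside protein-coding genes. It was 2.33 in coding exons and 1.69 both in 3′ UTRs and in non-coding transcripts. Median GC content was 50.3%, beside 47.4% for all autosomal DMRs, and a median of 9.21% of bases were soft-masked, beside 20.6%. CpG density was near equal in the 2 directions, with medians of 1.98 in exonic DMRs higher in MMS and 2.06 in those higher in control. By CpG density the share higher in MMS went from 62.5% of 40 exonic DMRs under 1 CpG per 100 bp to 55.7% of 70 with 3 or more, beside 69.5% and 55.4% in all autosomal DMRs.

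**Figure D4:**
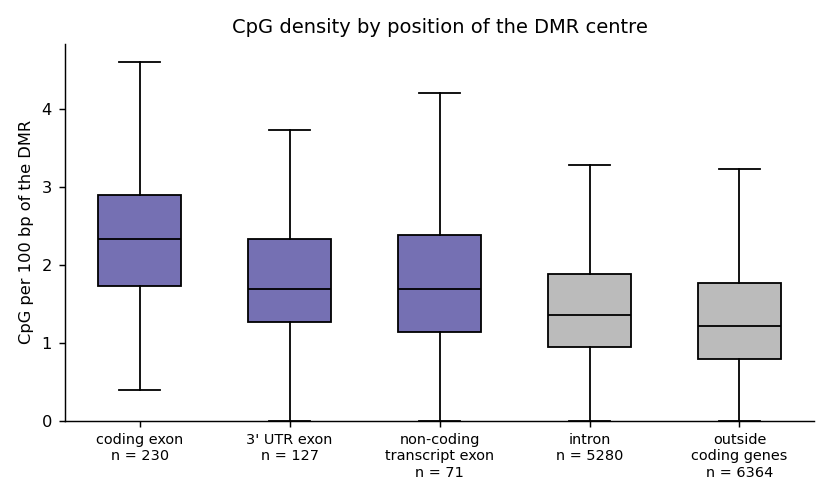
CpG per 100 bp of the DMR (y axis) by where its centre lay (x axis), with the line at the median, the box at the quartiles and whiskers to the most extreme values within 1.5 box lengths. The median falls from 2.33 in coding exons to 1.69 in 3′ UTR exons, 1.36 in introns and 1.22 outside protein-coding genes.

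Within single DMRs CpG was usually denser in the exon than outside it. In the 169 DMRs with at least 100 bp both in exons and outside them, the median was 2.89 CpG per 100 bp in the exonic bases and 1.47 outside. The exonic bases were denser in 139 of them and the outside bases in 30. Since reads were summed over the whole region, the level cannot be divided between these parts. Within coding sequence, CpG in the DMRs had the codon positions of their whole transcripts: the C was the last base of its codon in 40.2% of 2297 CpG in DMRs and in 40.9% of 26618 CpG in the same transcripts.

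**Figure D5:**
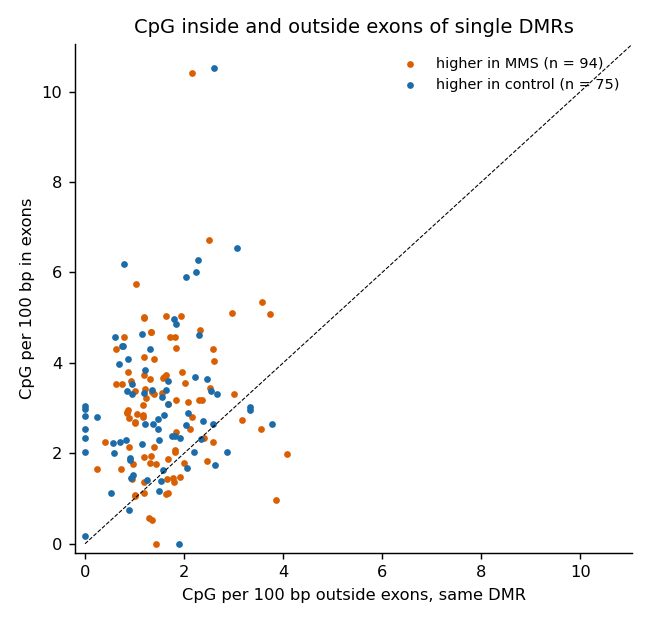
CpG per 100 bp in the exonic bases (y axis) and in the other bases (x axis) of the same DMR, for 169 DMRs with at least 100 bp of each, 94 higher in MMS in orange and 75 higher in control in blue. Most points, 139, lie above the dashed line of equal density, in both colours.

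The 3 exonic DMRs with the most CpG per 100 bp were higher in MMS, whereas Numbl, with 4.91, was higher in control. Tenm3, a teneurin that organises synapses and neuronal wiring, had 1.32 in control and 4.41 in MMS in its last exon (chr8:48228213-48229026), with 63 CpG in 814 bp, or 7.74 per 100 bp. Palld had 7.39 per 100 bp, with 50 of its 56 CpG in exons, and Cdh10 had 5.15. At the other end 6 exonic DMRs held no CpG at all, 5 of them in exons of non-coding transcripts. In 5 of the 6 at least 1 CpG lay within 200 bp of the DMR. The exception was Olfr984, where 678 bp of 3′ UTR and 200 bp on each side held none, yet levels were 0.50 in control and 3.57 in MMS. The widest exonic DMRs, Suds3 at 3206 bp (6.55 and 5.63) and Iffo2 at 2799 bp (6.99 and 6.23), were well covered in both groups and higher in control.

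How many DMRs an exon class held depended on the unit. Outside start and end windows, coding sequence held 9.26 DMRs per Mb, 3′ UTRs 6.56, introns 6.24 and 5′ UTRs 3.23. Per 10000 CpG the order turned, with 3.33 in coding sequence, 6.29 in 3′ UTRs, 7.23 in introns and 0.807 in 5′ UTRs. Coding sequence holds 2.78 CpG per 100 bp against 0.864 in introns. Neither rate is set against the regions the authors could test, which were not analysed here. Over chromosomes, exonic DMRs ran from 0.104 per Mb of chromosome 14 to 0.270 per Mb of chromosome 11. The share higher in MMS ran from 39.3% of 28 on chromosome 5 to 75.0% of 12 on chromosome 16. No share over all DMRs was taken by chromosome, so these shares are a description only.

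Most genes had a single exonic DMR. There were 410 genes with 1, 11 with 2 and 1 with 3, and of the 12 with several, 6 had all in one direction and 6 had both directions. The gene with 3 was D10Wsu102e, whose 3′ UTR exon, annotated at 122802 bp, held all of them, with levels of -0.17 and 4.67, 2.31 and 5.06, and -0.17 and 3.10 in control and MMS. Phc3, a Polycomb protein, was higher in MMS at both its DMRs (-0.17 and 3.14 in the 3′ UTR, 4.33 and 5.98 in coding exon 8). Cpm was higher in control at both (5.92 and 4.38 in coding sequence, 5.95 and 5.01 in the 3′ UTR), and so was Baz2a, which encodes a subunit of the remodelling complex that silences ribosomal DNA (4.79 and 2.83, 4.70 and 3.04).

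Other genes were higher in MMS at one exon and higher in control at another. Arsb, a lysosomal sulfatase of glycosaminoglycan breakdown, had 2.39 in control and 5.05 in MMS in an exon of a processed transcript, but 6.03 and 4.81 in its last coding exon. Atxn7l1 had 1.22 and 4.66 in a 3′ UTR and 5.39 and 4.01 in coding exon 5. Greb1 had -0.17 and 3.97 at its 5′ UTR exon, with control at its lowest level, and 4.37 and -0.24 at coding exon 28, with MMS at its lowest. Counting DMRs anywhere in the gene body, 192 exonic DMRs had others in the same gene, 379 in all. Of those 379, 193 (50.9%) had the direction of the exonic DMR. No such share was computed over all DMRs. Neither it nor the split by direction of genes with several exonic DMRs is therefore read as a trait of these genes. The 379 include other exonic DMRs of the same gene, so a pair of exonic DMRs is counted from both sides.

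Gene lists were read for their counts beside all 20780 protein-coding genes, of which 422 (2.03%) had an exonic DMR. In all, 75 exonic DMRs fell in 1 or more of 17 lists. In brackets the control level comes first and the MMS level second. Levels are those of whole DMRs, of which the exonic bases could be a small part (21.3% at Dlgap2). Medians of the signed difference mix both directions, and over all exonic DMRs the median was 2.12.

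Of 103 cadherin and protocadherin genes, 6 had an exonic DMR, all coding, beside 230 coding of all 435, 4 higher in MMS and 2 in control, with a median of 3.435. Beside Cdh10, the clustered protocadherins Pcdhb7 (0.96 in control and 4.56 in MMS) and Pcdhb9 (1.39 and 4.66) and the planar polarity cadherin Celsr1 (-0.17 and 4.05) were higher in MMS. Cdh19 (5.26 and 3.20) and Cdh23 (4.88 and 2.66), the tip-link cadherin of hair cells, were higher in control. Of 120 synaptic genes 4 had a coding DMR, 3 of them higher in control, with a median of -1.46. These were the postsynaptic scaffolds Dlgap2 (6.15 and 4.46) and Dlgap1 (5.25 and 3.65) and the teneurin Tenm4 (5.33 and 4.01), in contrast with Tenm3. Of 74 axon guidance genes 5 had an exonic DMR, 3 of them coding, with a median of -1.02. Robo3, a receptor needed for midline crossing (5.96 and 4.94), and the Eph receptors Ephb4 (5.65 and 4.51) and Ephb6 (4.84 and 3.07) were higher in control in DMRs centred in coding exons. Epha6 (-0.17 and 3.56) and Nfasc (-0.17 and 3.22) had control at its lowest.

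Of 182 channel genes 3 (1.65%) had an exonic DMR, with a median of -1.37. The T-type calcium channel Cacna1i (5.04 and 3.64) and the sodium channel Scn11a (4.87 and 3.50) were higher in control in DMRs centred in coding exons. The potassium channel Kcnt1 (1.46 and 4.11) was higher in MMS in a DMR with no CpG. Of 98 transmitter receptor genes 3 (3.06%) had one, with a median of 3.19. The kainate receptor subunit Grik3 (6.46 and 5.46) was higher in control, and the adrenoceptor Adra1a (1.59 and 4.78) and the GABA-B subunit Gabbr2 (-0.17 and 3.34) were higher in MMS.

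Genes that write, read or remodel chromatin held 6 exonic DMRs in 5 of 147 genes, with a median of 2.765. Chd5, a neuronal chromatin remodeller (2.12 and 5.18), the acetyltransferase Kat2b (2.12 and 4.59), and the lysine methyltransferases Setd7 (-0.17 and 4.14) and Nsd2 (-0.17 and 3.99) were higher in MMS, and Baz2a was higher in control at both its DMRs. Of 213 developmental transcription factor genes 4 had one, with a median of 0.90. Meis2 (4.92 and 3.36) and Foxp1 (4.71 and 2.07) were higher in control, and Cux2 (1.31 and 4.67) and Dlx4 (-0.17 and 3.64) in MMS. Of 501 zinc finger genes 11 had one, 5 higher in MMS and 6 in control, with a median of -1.03. The best covered were Zfp652 (6.45 and 5.42) and Zbtb16 (5.90 and 4.55), both in the 3′ UTR and higher in control.

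The list of nuclear receptors, stress and clock genes had 3 exonic DMRs in 84 genes, none in coding sequence, with a median of 3.42. Fkbp5, a co-chaperone that restrains the glucocorticoid receptor, had -0.17 in control and 3.40 in MMS (chr17:28498465-28499047). This DMR lay in the second exon of a retained-intron transcript, held 14 CpG, and had 53.2% of its bases soft-masked. Of a list of 15 genes for which qPCR assays were made, only Fkbp5 had an exonic DMR. Rxra, a retinoid receptor that pairs with many nuclear receptors, had 0.75 and 4.17 in its 3′ UTR, while Npas3 was higher in control. Of 67 hypothalamic peptide and receptor genes only the melanocortin receptor gene Mc5r had one (-0.17 and 4.16, 3′ UTR). Of 125 signalling genes the one member was the Wnt co-receptor Lrp6 (5.45 and 3.36), in an exon of a retained-intron transcript.

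Genes of the cytoskeleton, several of which have very long coding sequences, had 18 entries in the lists of motors and of giant proteins. Of 252 motor and cilium genes 12 (4.76%) had an exonic DMR, 7 higher in MMS and 5 in control, with a median of 2.14. Kif1b and the myosin Myo5b (5.76 and 4.39) were the best covered, and axonemal dyneins went both ways, with Dnah6 (5.68 and 3.62) and Dnah1 (5.09 and 3.01) higher in control and Dnah14 (-0.17 and 4.67) in MMS. Of 44 genes of giant scaffold proteins 6 (13.6%) had one, 3 in each direction, with a median of 0.51. Syne2, which links nucleus and cytoskeleton (5.95 and 4.38), and the muscle protein Ttn (5.36 and 2.57, exon 252 of 312) were higher in control. Of 1412 olfactory and vomeronasal receptor genes, 8 had one, 5 higher in MMS, with a median of 2.515, and the best covered were Olfr524 (3.28 and 6.06) and Olfr420 (5.54 and 4.35). The matrix list had Col12a1 alone of 105 (5.11 and 3.31), and the keratin list Krt12 alone of 59 (1.71 and 5.18).

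Sequence copies were searched for the exonic DMRs only, so no share over all DMRs stands beside these counts. Outside its own place, 27 of the 435 had a stretch of at least 100 bp and 95% identity, and in 14 of these a copy overlapped an annotated pseudogene. Only the Tyms DMR (3.52 in control and 0.86 in MMS), in the gene of thymidylate synthase, was copied over at least 90% of its length. Copies numbered 9835 for Map4k5 (-0.17 and 3.22) and 5735 for Usp29 (0.81 and 4.74), in DMRs of which 13.7% and 8.89% were exonic. The other 408 had none, and among them the share higher in MMS was 59.1%.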

How the data were processed

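The authors sequenced 3 control and 3 MMS meDIP pools on an Ion Proton, aligned reads to mm10, called broad peaks over inputs with MACS2 2.1 (with the genome size setting for human, -g hs) and compared groups in DiffBind with DESeq2. Its methods give a pooled input per group as the reference for normalisation, with an IgG library subtracted. HOMER 4.8 is also named in the processing notes. The deposited table lists regions past an FDR of 0.05 with log2 mean normalised reads over all libraries, the control group (column named untreated) and the MMS group (treated), by the authors. Its fold changes, p-values and FDR values hold the comparison of the authors and were not used. It has 0 columns of other samples and no value per pool, and the depth of each library is not in it.

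Members were taken from the 12949 listed regions by the region centre, in GENCODE vM21, leaving out 1000 bp upstream to 100 bp downstream of transcript starts and 100 bp upstream to 1000 bp downstream of transcript ends. Directions are differences of the 2 group means. CpG, GC and soft-masked bases were read from GRCm38, and copies were searched with BLAST 2.17.0. Where transcripts differed, a coding exon was preferred over a UTR exon. Scripts ran in Python 3.11.15 with pandas 2.3.3 and pysam 0.24.0, and were checked on simulated regions. Members and gene lists were chosen with earlier results of these data known.

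Genes named are, in each direction, the 6 largest differences with the lower group more than 0.5 above its lowest level, the 3 with the most reads per kb and the 3 largest with the lower group at its lowest. To these were added the 5 genes with the most exonic DMRs (of 11 tied at 2, those with the highest level over all libraries at any exonic DMR), the 2 best covered of each gene list, the 3 most CpG-dense, the 2 widest, and genes measured by qPCR in the study. Other list members, other genes with several DMRs, and genes named for a single count (Trim46, Sbf1, Olfr984, Tyms, Map4k5, Usp29) were named after their values were seen. Alternatives tried were other member definitions, widths, sizes of difference, and filters on low levels, repeats and copies.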

Additional observations from a re-analysis of the deposited data

How the results depend on the processing

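The direction share, the medians and CpG density changed little under transcripts tagged basic, a 2000 bp promoter window, at least 50% exonic bases, a width of at least 200 bp, and removal of repeats or copied sequence. The number of exonic DMRs, 435, became 230 with coding sequence only, 655 with transcript starts and ends kept, and 282 with a difference of at least 2. The share higher in MMS, 59.1%, became 79.1% with a difference of at least 2 and 46.1% without DMRs in which a group was near its lowest level. The median difference of DMRs higher in MMS, 3.32, became 2.655 without those same DMRs, and that of DMRs higher in control, -1.62, became -2.38 with a difference of at least 2. The share of DMRs higher in MMS with control near its lowest, 43.2%, became 49.8% with a difference of at least 2 and 54.5% with a limit of 1 in place of 0.5. Leaving out DMRs near the lowest level gives no value for it. Median CpG per 100 bp, 2.02, became 2.33 with coding sequence only. These shifts follow from how each alternative chooses regions. No paired analysis was possible, because the paper describes random allocation of each group's animals to pools, which does not keep litters matched. The table also holds no value per library, so no pool could be left out. The level behind a region limits it: below a level of about 4 most listed DMRs were higher in MMS.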
